A study of Mus musculus with 2 samples.

Results

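The genes for the proteins of the cytosolic ribosome were described in total RNA of the left cerebral cortex of 2 mice. A gene was taken when it had a transcript annotated as protein-coding and a symbol of the form Rpl or Rps with a number (and a suffix a, al, l, l1 or x where present), or was Rplp0, Rplp1, Rplp2 or Rpsa. This gave 83 of 55536 annotated genes, 31 for the small subunit and 52 for the large subunit, on 19 chromosomes. Rps3a1, Fau and Rack1 also belong to the cytosolic ribosome but fall outside the name rule, and are given as a comparison.

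Both animals were males of the strain B6CASTF1/J, the first generation of a cross between C57BL/6J and CAST/EiJ, at 25 days of age. There was 1 group with no treatment, and each library was made from 300 ng of RNA, with an added spike-in mix for stranded, ribosomal-RNA-reduced libraries. The labels call the samples biological replicates 1 and 2, with tissue numbered 03 and 04 in a biobank, but list both under 1 donor entry. The spread between them is therefore the only error available, n is 2 throughout, and no test between conditions was possible.

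Ribosomal proteins fold onto ribosomal RNA to form the small subunit, which reads the mRNA, and the large subunit, which joins amino acids. Most are made in matched amounts, and their mRNAs usually begin with a run of pyrimidines through which the mTOR pathway controls translation. Most of these genes have left processed pseudogenes, intronless copies of the mRNA elsewhere in the genome, in numbers that vary by gene. Reads from the 2 kinds of locus can be hard to tell apart.

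The libraries held 30503944 expected counts in replicate 1 and 33263801 in replicate 2. Ribosomal protein genes took 152241 and 174147 of these counts, or 0.50% and 0.52%. Levels are given in TPM, a share of all transcripts that corrects for transcript length, from 2 deposited quantifications of the same libraries: a gene table whose columns are those RSEM writes, and a second transcript file whose columns are those kallisto writes, summed here per gene. Cortical markers were present, with Slc17a7, the vesicular glutamate transporter of cortical excitatory neurons, at 675 and 664 TPM, and Gabra6, a marker of cerebellar granule cells, at 0.020 TPM in both. The summed choroid plexus markers Ttr and Folr1 were at 20.1 TPM in replicate 1 and 194 in replicate 2, the red blood cell markers Hba-a1 and Hbb-bs at 710 and 478, and the oligodendrocyte markers Mbp and Mog at 367 and 485. In bulk tissue a difference in the number of cells of a type and one in RNA per cell cannot be told apart.

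Short stretches show how close the copies come to their parent genes. In the first set, each ribosomal protein gene is followed by its pseudogene, for the 3 highest pseudogenes that differed from the parent in the coding alignment, with the differing bases in capitals, as read from the GENCODE M21 transcripts of mm10 on the strand of the transcript. Positions count from 1 at the first base of the parent's coding sequence and the parent's base comes first. Rps2-ps13 (chrX:52898627-52898667, plus strand) carries T60A, Rpl3-ps1 (chrX:13202608-13202648, plus strand) carries C57A, and Rps13-ps1 (chr8:87048110-87048150, plus strand) carries T411C and A429G.
Rps2: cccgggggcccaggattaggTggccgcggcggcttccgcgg
Rps2-ps13: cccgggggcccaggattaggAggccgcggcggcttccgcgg
Rpl3: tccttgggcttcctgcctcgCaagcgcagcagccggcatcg
Rpl3-ps1: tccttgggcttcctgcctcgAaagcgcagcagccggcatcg
Rps13: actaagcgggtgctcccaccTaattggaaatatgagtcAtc
Rps13-ps1: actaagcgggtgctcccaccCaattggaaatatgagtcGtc

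The coding alignment held 7 substitutions in 882 bases for Rps2-ps13, 2 in 1209 bases for Rpl3-ps1 and 2 in 456 bases for Rps13-ps1. It held 0 substitutions for Rps23-ps1 (425 bases), Rpl31-ps8 (378), Rpl28-ps1 (243), Rpl10-ps3 (645), Rps12-ps3 (399) and Rpl36a-ps2 (321). These copies are among the highest in the gene table, and alignments of the others are not given. Those others include Rpl27-ps3, Rps16-ps2, Rpl38-ps2 and Rpl10a-ps1, in which every stretch of 100 bases was found in a transcript of the parent gene.

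The second set shows transcription start sites, where the pyrimidine run would lie. RefSeq promoter windows on GRCm38.p6, from 250 bases before to 50 after the annotated start, were matched by symbol for 63 of the 83 genes. A run of C followed by 4 or more C or T, beginning exactly at the annotated start, was found in 13 of the 63 (20.6%), against 3.01% of 27025 genes with such a window. Each line gives 15 bases on either side of the start, with the run in capitals, for the 3 longest and the 2 shortest runs: Rpl15 (chr14:18270972-18271001, minus strand), Rpl35 (chr2:39005117-39005146, minus), Rps10 (chr17:27635230-27635259, minus), Rplp2 (chr7:141447636-141447665, plus) and Rps21 (chr2:180257364-180257393, plus).
Rpl15: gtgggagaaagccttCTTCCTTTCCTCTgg
Rpl35: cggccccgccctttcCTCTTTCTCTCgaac
Rps10: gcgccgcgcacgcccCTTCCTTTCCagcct
Rplp2: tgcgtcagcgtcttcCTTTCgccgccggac
Rps21: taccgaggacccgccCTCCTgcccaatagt

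The runs were 13 bases long in Rpl15, 11 in Rpl35, 10 in Rps10 and 5 in Rplp2 and Rps21. A match depends on where the annotation puts the start, which these data did not measure. The letters CCGGAAGT on either strand, the core that ETS-family factors bind, were in 12 of the 63 windows (19.0%) against 4.31% of all genes, and 3 genes had both features. TATAAA at 15 to 40 bases before the start was in 1 of 63 (1.59%), that of Rpl22l1, against 2.41% of all genes. The median level was 170 TPM for the 13 genes with a run and 136 TPM for the 47 matched genes without one that were at 1 TPM or more. In the second file these medians were 294 and 280 TPM.

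The typical ribosomal protein gene was among the most abundant mRNAs of the cortex. Of the 83 genes, 80 were at 1 TPM or more in both animals and in both files. The median gene was at 153 TPM in replicate 1 and 154 in replicate 2, above 97.7% and 97.8% of genes with a protein-coding transcript. The genes summed to 14002 and 14327 TPM (14164 ± 230, SD, n = 2), which was 2.90% and 3.00% of the TPM of all such genes. The sums in the second file were 27367 and 28257 TPM, or 3.44% and 3.54%. The members were not equal: the highest was 42.4 and 47.1 times the lowest of the 80 in the 2 animals.

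**Figure D1:**
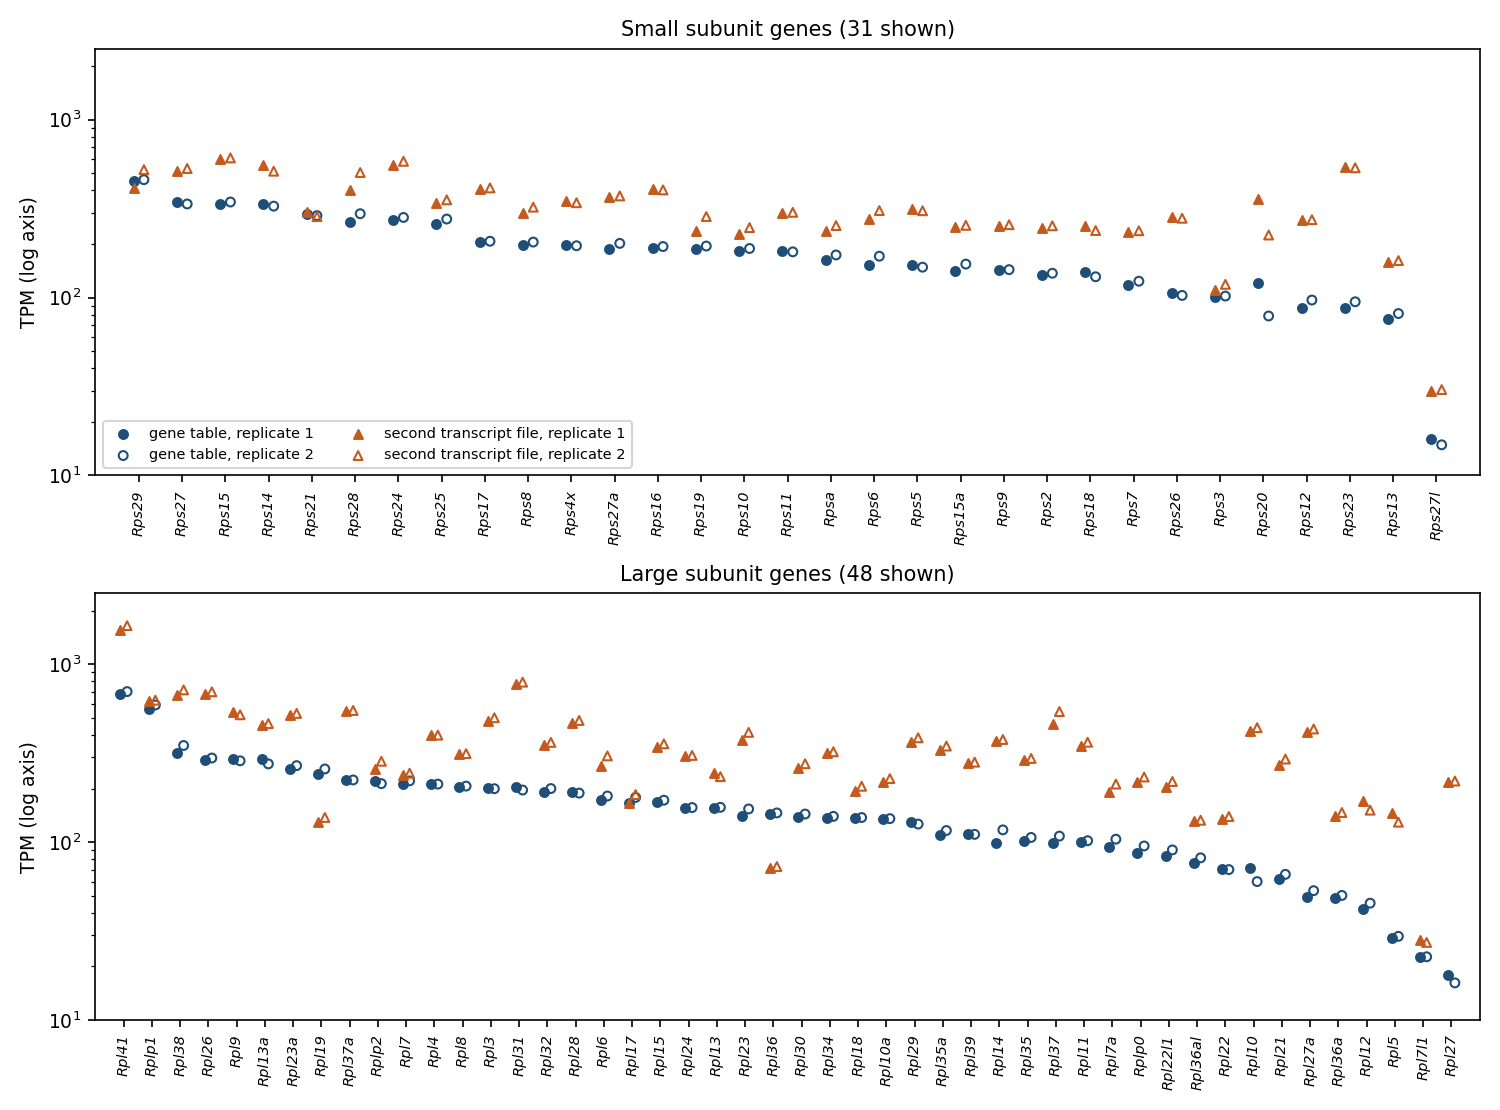
TPM (log axis) of 79 of the 80 ribosomal protein genes at 1 TPM or more, ordered by mean level in the gene table within the small (31) and large (48) subunit; circles are the gene table and triangles the second transcript file, filled for replicate 1 and open for replicate 2. In the gene table the animals lie close together, apart from Rps20. In the second file they also lie apart for genes such as Rps29 (410 and 523 TPM) and Rps28 (404 and 504). The 2 files place genes such as Rpl27, Rps23 and Rpl36 far apart.

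In the small subunit, Rps29, a zinc-binding protein of the subunit's head, was the highest in the gene table at 450 and 459 TPM. Rps27, another zinc-binding protein, followed at 346 and 336 TPM. The lowest gene that is not a paralog was Rps13 at 75.7 and 81.3 TPM, with only the paralog Rps27l below it at 15.9 and 14.9 TPM. In the second file Rps15 was the highest, at a mean of 603 TPM, and Rps3, at 114, the lowest apart from Rps27l. The small subunit median was 181 ± 1.06 TPM over 31 genes.

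In the large subunit, Rpl41, which encodes a very short basic peptide, was the highest of all members at 676 and 701 TPM. It lies at chr10:128548114-128549305 on the minus strand of mm10. Rplp1, an acidic protein of the stalk that recruits elongation factors, was at 558 and 589 TPM. The lowest above 1 TPM in the gene table were Rpl27 at 17.9 and 16.2 TPM and Rpl7l1 at 22.5 and 22.7 TPM. In the second file they were Rpl7l1 and Rpl36, at means of 27.7 and 72.1 TPM. The large subunit median over its 49 genes at 1 TPM or more was 143 ± 4.45 TPM, or 0.787 of the small subunit median. In the second file the order turned, with medians of 314 and 301 TPM and a ratio of 1.04.

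Within structural groups the proteins stand side by side in the ribosome but their mRNA levels did not match. The stalk and its base had a median of 154 ± 0.311 TPM over 4 genes. Rplp1 and Rplp2, which pair in the stalk, were at 573 ± 22.4 and 217 ± 5.27 TPM, and Rplp0, the protein that anchors them, was at 90.9 ± 5.89 TPM. Rpl12, at the stalk's base, was at 43.8 ± 2.16 TPM. In the second file Rplp0 was at 225 TPM and Rpl12 at 161 TPM, so that the spread within the stalk was smaller there.

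Rpl5 and Rpl11 carry the 5S ribosomal RNA into the large subunit, and bind Mdm2 when they are not assembled. Rpl11 was at 100 and 102 TPM and Rpl5 at 29.04 and 29.54 TPM in the gene table. Both were over 2-fold higher in the second file than the shift between the files, at 355 and 138 TPM.

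Among 10 genes whose proteins line the peptide exit tunnel, the median was 206 ± 2.51 TPM. Rpl38 was the highest at 318 and 349 TPM and Rpl26 next at 288 and 297. Rpl22 was the lowest at 70.8 and 70.1, below Rpl35 at 102 and 106. In the second file Rpl31 was the highest of the 10, at a mean of 783 TPM, and Rpl19 the lowest at 134. The 7 genes at the mRNA entry and exit sites had a median of 151 ± 3.45 TPM. They ran from Rps14, a protein of the platform, at 336 and 326 TPM, and Rps28 at 265 and 296, down to Rps26 at 106 and 103 and Rps3 at 100 and 102.

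Rps27a, made as a fusion with ubiquitin, was at 188 and 201 TPM. Fau, outside the name rule and fused to a ubiquitin-like protein, was at 261 and 273 TPM, Rps3a1 at 156 and 148, and Rack1, a scaffold on the small subunit, at 98.9 and 97.4. These 3 genes outside the rule lay within the range of the members.

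Mutations in many ribosomal protein genes cause Diamond-Blackfan anaemia, a failure of red cell production. All 19 listed genes of this disease were detected, with a median of 170 ± 2.02 TPM. In the gene table they spanned nearly the whole range, from Rps29 and Rps27 at the top to Rpl5 and Rpl27 at the bottom. The second file had Rpl31 at 783 TPM and Rpl26 at 689 at the top, and Rpl18 at 200 and Rpl5 at 138 at the bottom.

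Other lists place these levels. The 78 mitochondrial ribosomal protein genes, whose products form the separate ribosome of mitochondria, were all detected, at a median of 24.1 ± 0.629 TPM, from Mrpl30 at 61.7 and 66.5 TPM down to Mrpl23 at 1.27 and 1.44, which the second file gave at 44.6 and 47.9 TPM, above its median of 39.6 for this list. The 7 elongation factor genes had a median of 196 ± 0.523 TPM. Eef1a1, which brings tRNAs to the ribosome, led them at 946 and 969 TPM, followed by its neuronal form Eef1a2 at 583 and 605, while Eef1d was the lowest at 45.1 and 49.8. The 9 other mRNAs known for a start-site pyrimidine run had a median of 68.7 ± 0.148 TPM, led by Tpt1 at 475 and 457. The 22 ribosome biogenesis genes were at a median of 20.9 ± 0.286 TPM, from Npm1 at 60.9 and 64.6 down to Bysl at 8.35 and 8.10. The 14 genes that regulate ribosome production or translation were at 22.5 ± 0.697 TPM, with Tsc2, an inhibitor of mTOR signalling, at 55.3 and 59.3 and Myc at 2.15 and 1.99.

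Paralogs, which can replace a standard protein in some tissues, fell into 2 kinds. Rpl10l and Rpl39l, known from testis, and Rpl3l, known from striated muscle, were at or near 0, and were the 3 members below 1 TPM. Rpl10l had 0 counts in both animals, which allows up to 3 counts in each. Rpl39l had 0 and 1 counts and Rpl3l 3 and 2. Their parents were all detected, with Rpl3 at 201 and 199 TPM, Rpl39 at 110 and 111, and Rpl10 at 71.7 and 60.0.

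With all annotated transcripts counted, Rpl22l1 was more abundant than its parent. It was at 83.3 and 90.4 TPM against 70.8 and 70.1 for Rpl22, or 55.2 ± 1.61% of the pair, and 60.7 ± 0.683% in the second file. In the gene table's companion transcript file, protein-coding transcripts held 8.39% and 18.6% of Rpl22l1 but 96.6% and 97.4% of Rpl22. In the second file they held 23.2% and 46.7% of Rpl22l1 and 24.5% and 23.7% of Rpl22. The order of the 2 genes therefore does not carry over to coding mRNA in the companion. Rpl36al, a gene related to Rpl36a, was at 76.1 and 81.6 TPM against 48.8 and 50.1, or 61.4 ± 0.716% of the pair. Its share in the second file was 48.0 ± 0.714%, so which of the 2 was higher depended on the file. Rpl7l1 made up 9.47 ± 0.228% of its pair with Rpl7, which was at 211 and 221 TPM. Rps27l, a target of p53, made up 4.32 ± 0.114% of its pair with Rps27. Rps4x, an X-linked gene, was at 197 and 195 TPM, and the rule selected no partner for it.

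**Figure D2:**
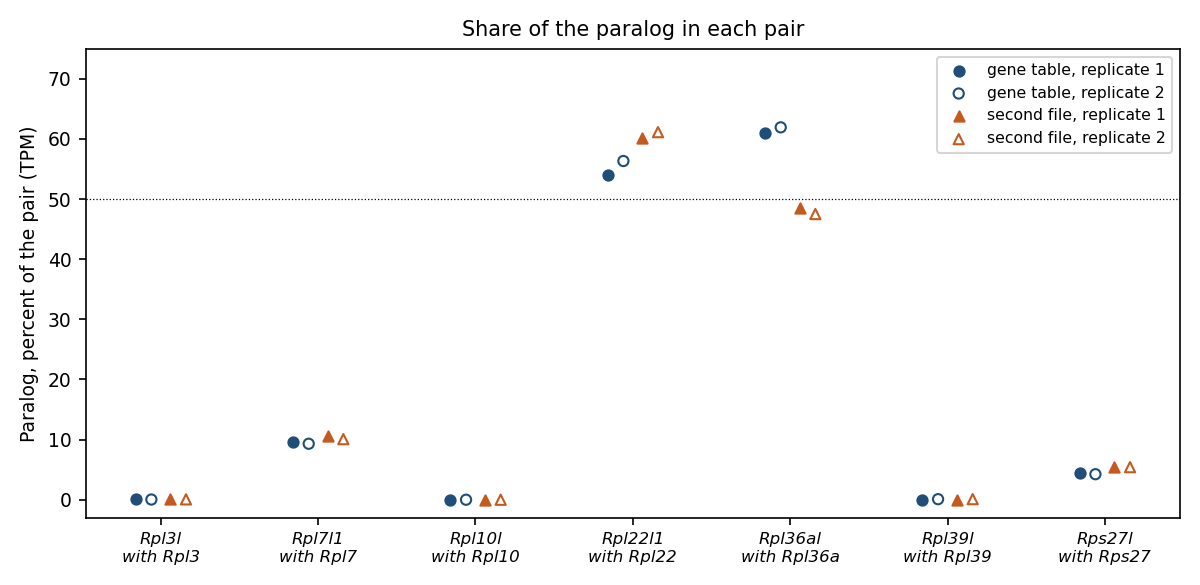
Share of the paralog in the summed TPM of each parent and paralog pair, in percent, for replicate 1 (filled) and replicate 2 (open) in the gene table (circles) and the second transcript file (triangles); the dotted line marks 50%. All annotated transcripts of each gene are counted, coding or not. Rpl22l1 lies above the line in both files, Rpl36al lies on either side of it depending on the file, and Rpl3l, Rpl10l and Rpl39l lie at or near 0.

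The animals differed little in these genes. Averaged over the animals, 80 members and 18136 genes in all had 10 or more expected counts. Replicate 2 was higher for 58 of the 80, where the background was 41.5%. The median log2 difference, replicate 2 over replicate 1 on the log2(TPM + 0.5) scale, was 0.03 for the members and -0.03 for all genes. The second file had 65 of 80 higher, against 44.3% of all genes, with medians of 0.04 and -0.02. By TMM-scaled counts 68 of 80 were higher, against 52.0% of all genes, with medians of 0.08 and 0.01. Scaling to the spike-in total gave 78 of 80, with medians of 0.23 for the members and 0.15 for all genes, of which 80.0% were then higher. With 1 animal on each side, these counts describe 2 libraries. The summed choroid plexus, red blood cell and oligodendrocyte markers given above also differed between these animals, and their part in the shift was not tested.

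Only 1 of the 80 genes was over 25% higher in one animal than in the other in the gene table (background 14.3%), and 2 in the second file (background 17.5%). Ranks of the 80 genes were close to the same in the animals, with a Spearman coefficient of 0.99 in the gene table and 0.98 in the second file, as a description across genes that share their libraries. Exact binomial intervals of the counts (Clopper-Pearson, 95%), on the TMM scale, lay above 0 for 32 genes (background 11.0% of 18136), below 0 for 2 (background 10.6%) and spanned 0 for 46. Such intervals narrow as counts rise. Reads that arose in PCR are not independent molecules, so these intervals cover counting error only. In sign, 51 of the 80 were higher in replicate 2 in both files (background 31.9%), 8 were lower in both (background 45.0%) and 21 differed between the files.

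**Figure D3:**
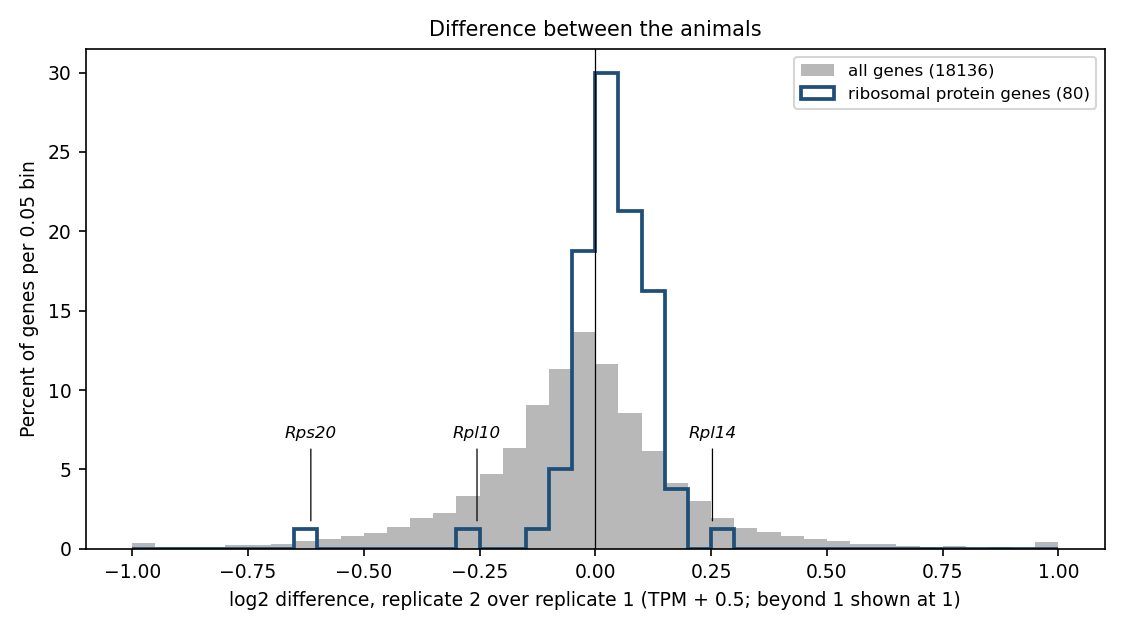
Log2 difference between the animals (replicate 2 over replicate 1, TPM + 0.5) as the percent of genes per bin of 0.05, for 18136 genes (grey) and the 80 ribosomal protein genes (blue outline); values beyond 1 are drawn at 1. The ribosomal protein genes form a narrower peak just above 0, with Rps20 alone at -0.61. The 2 sets of genes were not matched for expected counts.

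The gene apart was Rps20 (ENSMUSG00000028234.6, chr4:3831334-3835665, minus strand), which encodes a protein of the small subunit's head. It was at 121 TPM in replicate 1 and 78.7 in replicate 2, on 1463 and 1002 expected counts. The log2 difference was -0.61 in the gene table and -0.67 in the second file, at 358 and 225 TPM. By TMM-scaled counts it was -0.67, with a counting interval from -0.79 to -0.55. Its 3 annotated transcripts were all lower in replicate 2. Rps20-201, labelled retained intron, was at 89.4 and 64.5 TPM, Rps20-202, with the same label, at 26.2 and 11.9, and Rps20-203, labelled protein-coding and 3706 bases long, at 5.18 and 2.33. The 2 retained-intron transcripts thus held most of what was assigned to Rps20 in either animal.

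The other gene whose interval lay below 0 was Rpl10, a protein that joins the large subunit late, at 71.7 and 60.0 TPM (log2 difference -0.26). The second file had a difference of 0.06, at 421 and 439 TPM. Its near-identical copy Rpl10-ps3 moved the other way, at 141 and 159 TPM, and the sum of both was 212 and 219 TPM. The next 3 on the lower side were Rpl27 at -0.14, Rpl13a at -0.10 and Rps27l at -0.10. Rpl13a, known for a role in silencing inflammatory mRNAs, was at 295 and 275 TPM.

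On the higher side Rpl14 led at 98.2 and 117 TPM (0.25), but was at 369 and 377 TPM in the second file (0.03). Its copy Rpl14-ps1 was at 51.2 and 41.7 TPM, and the sum was 149 and 159 TPM. Rps28 followed at 0.16 and was at 0.32 in the second file, then Rps6, the target of S6 kinase, at 153 and 171 TPM (0.15), Rpl7a at 93.4 and 104 TPM (0.15), and Rps12 at 87.4 and 96.8 TPM (0.15). For Rps12 the copy Rps12-ps3 was at 99.5 and 83.7 TPM, with sums of 187 and 180. For Rpl10, Rps12, Rpl27 and Rpl14, named here after their values were seen, the member and its copy differed between the animals in opposite directions, and the sums differed by at most 0.09 on the log2 scale. Rps29 was the other gene past 25% in the second file, at 410 and 523 TPM there.

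The spread of read assignment that the quantification itself gave was small for most members. The posterior standard deviation was a median of 0.91% and 0.92% of the expected count in the 2 animals. It was over 5% for 4 genes: Rps12 at 18.5% and 11.5%, Rpl10 at 12.5% and 11.8%, Rpl27 at 9.02% and 8.66%, and Rpl36a at 5.52% and 5.23%. Rps12, Rpl10 and Rpl36a have a copy with 0 substitutions in the coding alignment. Rpl27, for which no alignment is given, has the copy Rpl27-ps3, with every stretch of 100 bases found in a transcript of Rpl27. Rps23, Rpl31 and Rpl28 also have a copy with 0 substitutions. Their spread was lower, at 3.26% and 2.74%, 3.37% and 3.21%, and 2.21% and 2.27%.

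A far larger spread than that between animals lay between the 2 quantifications of the same libraries. The second file gave the median gene with a protein-coding transcript a TPM 1.55 times that of the gene table. The non-coding RNAs Rn7s1, Rn7s2 and Rn7sk took 33.3% and 33.7% of all TPM in the gene table and 0.0002% and 0.0004% in the second file. Against that shift of 1.55, the median member stood at 1.94. Of the 80 members, 11 were over 2-fold higher in the second file after centring on the shift, against 0.68% of 12794 such genes, and 2 were over 2-fold lower, against 0.61%. Ranks of the 80 members had a Spearman coefficient of 0.63 between the files, where that of the 12794 genes was 0.98. These coefficients describe genes of the same libraries, and the members cover a narrower range of levels.

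**Figure D4:**
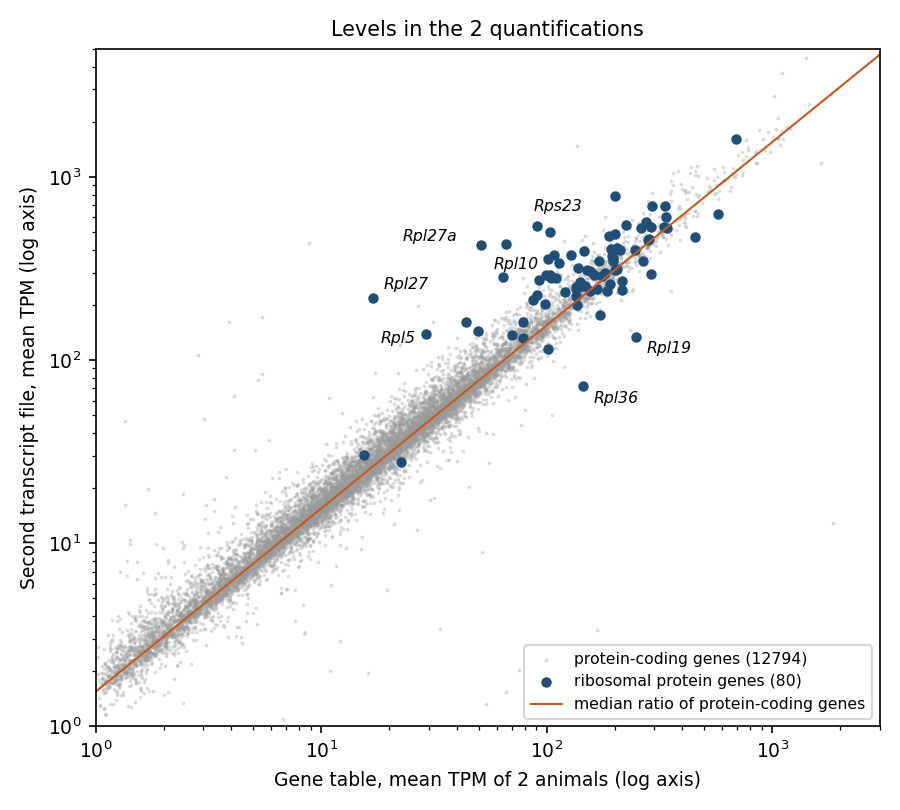
Mean TPM of the 2 animals in the gene table (horizontal) and in the second transcript file (vertical), both on log axes, for 12794 genes with a protein-coding transcript (grey) and the 80 ribosomal protein genes (blue); the line is the median ratio of 1.55, and points beyond the axes are not drawn. Rpl27, Rpl27a, Rpl10 and Rps23 lie far above the line and Rpl36 and Rpl19 below it.

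Rpl27, a Diamond-Blackfan anaemia gene at chr11:101442298-101445529 on the plus strand, differed most. It was at 17.9 and 16.2 TPM in the gene table and at 218 and 220 TPM in the second file, a centred log2 difference of 3.02. Rpl27a was at 49.3 and 53.3 TPM against 415 and 432 (2.40). Rpl10 was at 71.7 and 60.0 against 421 and 439 (2.07). Rps23, a protein of the decoding centre, was at 87.1 and 94.6 against 542 and 536 (1.93). Rpl37 was at 99.01 and 108 against 463 and 541 (1.64).

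On the other side, Rpl36 was at 144 and 146 TPM in the gene table and 71.3 and 72.9 in the second file (-1.63). Rpl19 was at 242 and 258 TPM against 130 and 138 (-1.53). Rps21 (-0.62), Rpl17 (-0.60) and Rps29 (-0.59) came next. The direction was the same in both animals for each of these 10 genes.

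The members share sequence with many loci. The leading coding transcript of each member was cut into overlapping windows of 100 bases, and a median of 38.6% of a gene's windows were also found, letter for letter, in transcripts of other genes. The share was at least 50% for 33 members and at least 90% for Rps27 (98.4%) and Rpl10 (91.6%). Rpl21 shared windows with 40 other genes, and 9 members shared none. The percent of windows shared had a Spearman coefficient of 0.03 with the ratio between the files over 80 members. For the percent of the joint gene-table TPM of a member and its sharing genes that the sharing genes held, it was 0.57. The member's own gene-table TPM enters both that percent and the ratio, so part of this coefficient is built in.

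The 11 members that were over 2-fold higher in the second file were chosen by that ratio, so the values of their partners are given as a description. In the gene table, the genes that shared a window with them held 30.1% to 89.7% of the joint TPM. The median was 76.3%, against 6.49% for the other 69 members at 1 TPM or more. In the second file these medians were 11.7% and 0.267%. For some the level of these other genes was far lower in the second file: 292 against 2.67 TPM for Rps23, 172 against 7.43 for Rpl31, 151 against 1.496 for Rpl10, and 149 against 0 for Rpl27. For others it was close to the same, although the member itself was several times higher: 189 against 184 TPM for Rpl12, 46.4 against 49.5 for Rpl14, 277 against 252 for Rpl37 and 189 against 161 for Rpl27a. Rpl5 had 124 against 151 TPM, Rpl21 252 against 164 and Rpl11 89.6 against 18.5. These TPM of the other genes were not centred on the shift between the files, unlike the ratio that chose the members. Of the 2 lower members, Rpl19 shares windows with Rpl19-ps11, which was at 14.03 and 9.90 TPM in the gene table and at 332 and 313 TPM in the second file, and Rpl36 with Rpl36-ps12, at 23.02 and 25.98 TPM against 52.2 and 56.7. The 6 detected members with no shared window had centred log2 ratios from -0.62 to 0.41. The division of reads was not tested against any independent measure, so these values do not tell which file is nearer to the RNA in the tissue.

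**Figure D5:**
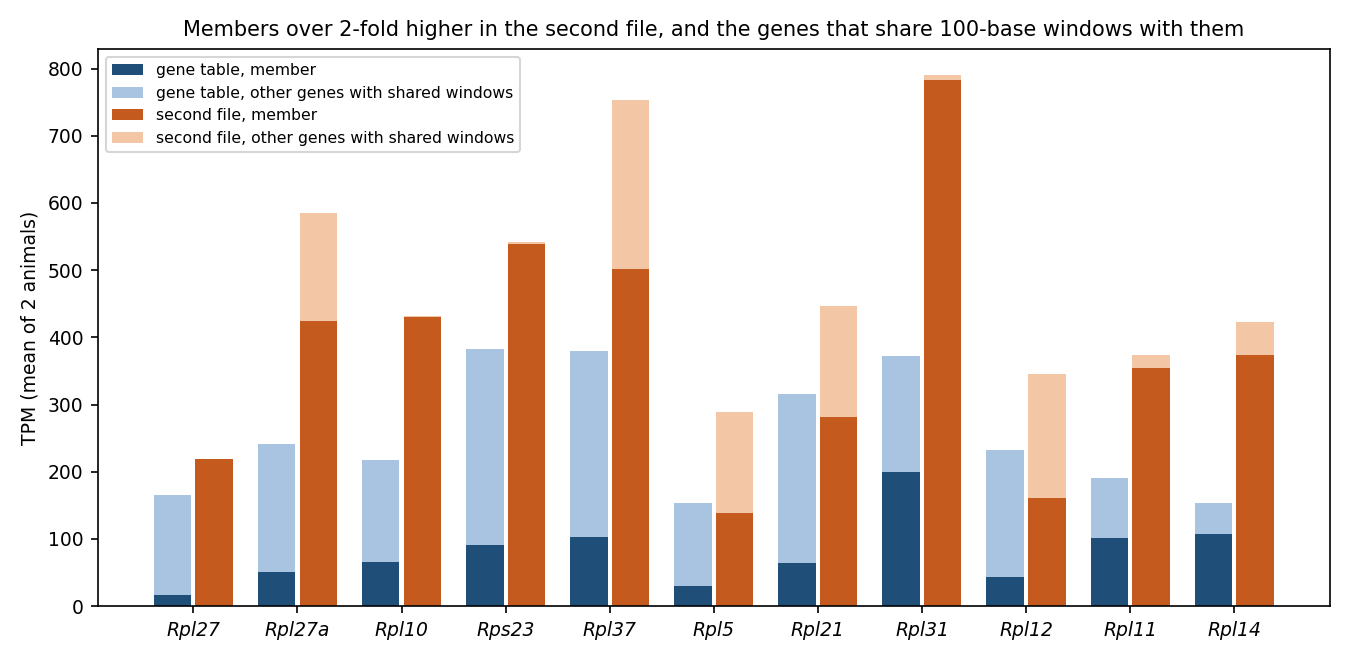
Mean TPM of 2 animals for the 11 ribosomal protein genes over 2-fold higher in the second file (dark bars) and, stacked on them, the summed TPM of all other genes that share at least 1 window of 100 bases with them (pale bars), in the gene table (blue) and the second file (orange). In the gene table the other genes make up most of the bar for 8 of the 11. In the second file their part is near 0 for Rpl27, Rpl10, Rps23 and Rpl31. It is largest there for Rpl12 (53.4%), Rpl5 (52.2%), Rpl21 (36.8%) and Rpl37 (33.4%).

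Named pseudogenes of ribosomal proteins numbered 300, and 298 of them had a member as parent, covering 60 members. They summed to 2195 and 2200 TPM in the gene table, which was 13.6% and 13.3% of members and pseudogenes together, and to 5.14% and 4.88% in the second file. At 10 TPM or more on average in the gene table were 34 of them, and 20 of these were listed at 0 in both animals in the second file. In 9 of the 34, every window of 100 bases was found in a transcript of the parent gene. All 9 were listed at 0 in the second file, and summed to 984 TPM in the gene table. Of the other 25, 11 were listed at 0 there, and the 25 summed to 1158 TPM in the gene table and 1428 in the second file.

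Rps23-ps1, on chromosome 3, was the highest in the gene table at 300 and 283 TPM, above Rps23 itself. Rpl31-ps8 was at 161 and 181 TPM, Rpl28-ps1 at 151 and 164 and Rpl10-ps3 at 141 and 159. All were listed at 0 in the second file. Rps2-ps13, Rpl3-ps1 and Rps13-ps1, the copies whose differing bases are printed above, kept a level in both: 178 and 184 TPM against 219 and 220, 118 and 121 against 183 and 185, and 70.4 and 71.6 against 125 and 137. The reference here is that of C57BL/6J, and bases that CAST/EiJ chromosomes carry at these sites were not analysed here.

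Adding the named pseudogenes to their parents brought the files nearer. The interquartile range of the centred log2 ratio went from 0.64 to 0.44 over the members, against 0.26 for genes with a protein-coding transcript, and its median from 0.33 to 0.18. The number of members over 2-fold higher went from 11 to 6. The number over 2-fold lower went from 2 to 1, with Rpl19 at 0.18 and Rpl36 still at -1.07. Copies with other names were not added: Gm10275, which shares 535 windows with Rpl12, was at 189 TPM on average and at 182 in the second file, Gm7536 with Rpl27a at 152 and 144, Gm15500 with Rpl5 at 122 and 150, and Rpl37rt with Rpl37 at 277 and 252. These 4 were named after their values were seen. For each of the 11 members the sharing gene with the highest gene-table TPM was taken, and these passed 100 TPM under other names. The TPM of these 4 genes, not centred on the shift between the files, were close in the 2 files.

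Part of the TPM of the members was assigned to transcripts that are not annotated as coding. The members have 500 annotated transcripts, 234 of them protein-coding, 176 retained intron, 65 processed transcript and 25 marked for nonsense-mediated decay. Protein-coding ones held 82.8% and 83.3% of the members' TPM in the gene table's companion transcript file and 69.9% and 70.4% in the second file. Retained-intron transcripts held 8.79% and 8.25%, against 16.2% and 15.5% in the second file, and processed transcripts 5.17% and 5.11% against 10.7% and 11.1%. Transcripts marked for decay were at 3.26% and 3.31%, close to their 3.14% and 2.99% in the second file.

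The coding share was high in most members and low in a minority. The median over 80 genes was 94.95% and 95.99%, above the 90.2% and 91.1% over genes with a protein-coding transcript at 1 TPM or more. In the second file the medians were 91.4% and 92.5% for the members and 88.3% and 89.3% for that background. Under 50% in each animal were 14 members, where the background was 9.81% and 9.15%. The second file had 20 and 21 members under 50%, against 11.8% and 11.3%. The lowest was Rps16, a small subunit protein, at 2.76% and 1.53%, where the retained-intron transcript Rps16-203 was at 124 and 123 TPM and the coding Rps16-201 at 5.25 and 2.96. Rpl35 followed at 3.88% and 3.84%, with the processed transcript Rpl35-203 at 94.4 and 101 TPM. Rps20 was at 4.29% and 2.96%, Rps26 at 7.43% and 3.95%, and Rpl22l1 at 8.39% and 18.6%. In Rpl22l1, Rpl22l1-209, a processed transcript, was at 72.4 and 70.7 TPM in this file and at 24.4 and 0 in the second.

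The files did not share these calls for every gene. In the second file Rps26 was 59.1% and 59.5% coding, Rpl35 24.5% and 25.1%, Rps16 16.9% and 17.5% and Rpl22l1 23.2% and 46.7%. Rps27 was 98.1% and 98.3% coding in the gene table's companion but 0.369% and 0.794% in the second file, where the retained-intron Rps27-209 was at 491 and 456 TPM. Rps27-209 was at 2.83 and 1.98 TPM in the companion. Rps20 was low in both, at 1.34% and 0.877% in the second file. How reads common to overlapping transcripts of 1 gene were divided was not tested.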

How the data were processed

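Total RNA-seq of 2 cortex samples was used as deposited. Per the submitters' file listing, reads were quantified on mm10 with GENCODE M21. For the aligner and program versions: not given in the sources used here. The gene table and its companion transcript file hold expected counts, TPM and posterior mean TPM per the file headers, the latter file also the isoform percent of each gene, and the second transcript file holds estimated counts and TPM per the file headers. TPM are those the authors deposited; the second file was summed per gene, and isoform shares were computed from TPM.

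Differences are log2((TPM + 0.5) of replicate 2 over replicate 1), for genes whose expected counts averaged 10 or more. TMM factors (edgeR 4.0.16) and size factors (DESeq2 1.42.0), from rounded counts, and spike-in totals served as alternative scalings. With 1 animal per side no test was run. Window sharing compared all strings of 100 bases of M21 transcripts on 1 strand.

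Genes were named by rule: the 2 highest and 2 lowest of each list, all paralog pairs, the 5 largest differences in each direction, the 5 most and least changed between files, the 5 lowest coding shares, the longest and shortest start-site runs and all members under 1 TPM. The members and lists were chosen with earlier results of these data known. Counts were made with R 4.3.3, pandas 2.3.3 and Python 3.11.15. Results for 2 genes are not reported here.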

Additional observations from a re-analysis of the deposited data

How the results depend on the processing

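The 80 members at 1 TPM or more stayed 80 under every alternative tried. The median member, 154 TPM, was 303 in the second file, 149 by posterior mean TPM and 339 when rescaled to nuclear protein-coding genes, and the sum, 14164 TPM, was 27812, 13774 and 31239. The ratio of the large to the small subunit median, 0.787, reversed to 1.04 in the second file, as did the share of Rpl36al with Rpl36a, from 61.4% to 48.0%; the cause was not tested. The median log2 difference of 0.03 moved to 0.077 by TMM-scaled counts, 0.078 by DESeq2 size factors and 0.23 by the spike-in total. The number of members over 25% apart, 1, was 2 in the second file and 7 by the spike-in total. With 1 replicate left out, the median was 153 to 154 TPM, the sum 14002 to 14327 TPM and the ratio 0.766 to 0.807. No paired analysis was possible because the labels give 1 group. Depth limits 3 members, which rest on 0 to 3 counts.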

Other observations

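Small nucleolar RNAs, which guide chemical changes on ribosomal RNA, lie in introns of many members. In the annotation 56 of them sat within 29 member genes. Of these, 33 had an effective length of 0 in the gene table, and of the other 23, 11 had counts in both animals and 8 had 0 in both. Snord15b, within Rps3, was the highest at 309 and 304 TPM on 286 and 315 counts, above its host at 100 and 102 TPM. Gm26448, within Rpsa, was at 123 and 132 TPM, Snord15a, within Rps3, at 58.8 and 57.1, and Snora21, within Rpl23, at 20.9 and 38.6 TPM on 16 and 33 counts. TPM of such short RNAs rest on small effective lengths (46 bases for Snord15b), where a single count weighs much. These RNAs were chosen as the highest after their values were seen.

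Some members overlap other genes, and how reads of overlapping loci were divided was not tested. Rpl3 overlaps Syngr1, a synaptic vesicle gene, on the opposite strand, at 213 and 223 TPM. Rpl28 overlaps Ube2s on the opposite strand, at 50.7 and 47.4 TPM. Rpl13 overlaps Gm20388 on the same strand, at 2.46 and 8.11 TPM, while Rpl13 itself was at 155 and 157 TPM.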
